A study of Mus musculus with 23 samples.

Results

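The 6 genes followed here belong to the colony-stimulating factor system, read in the open chromatin of striatal microglia: the ligand genes Csf1 and Il34, their receptor gene Csf1r, the 2 beta chain genes Csf2rb and Csf2rb2, and the G-CSF receptor gene Csf3r. A peak belonged to a gene when its summit lay in the gene body or within 20 kb of it, with the nearest of the 6 genes taken where several qualified. Of the 1054137 deposited peaks, 735 did, between 21 and 45 in a library. After each list was cut to the same length, as described below, 555 of them were left. The cut lists gave 49126 regions, of which 32 lie at these genes. These were 5 at Csf1, 1 at Il34, 9 at Csf1r, 5 at Csf2rb, 4 at Csf2rb2 and 8 at Csf3r. Of the 555 peaks, 515 had their summit in 1 of the 32 regions. Another 14 windows at these genes held a peak in fewer than 3 libraries and were left out.

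ATAC-seq, in which the transposase Tn5 cuts into accessible DNA, was run on CD11b+, CD45-low, P2RY12+ cells sorted from the striatum; the mice were males, 8 to 10 weeks old. The labels give 4 groups: 5 libraries of control offspring given saline (CON_SAL), 7 of control offspring given LPS (CON_LPS), 6 of offspring with maternal immune activation given saline (MIA_SAL) and 5 of such offspring given LPS (MIA_LPS). LPS, a bacterial cell wall component that activates TLR4, was injected into the peritoneum at 4500 endotoxin units per g of body weight, and cells were taken 18 h later. No source used here gives the agent that the dams received, the strain, a genotype or any pooling of animals. The series' title says that stress before birth blunts how microglia react, so each region was compared by treatment, by prenatal history and by the difference in LPS response between CON and MIA offspring.

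CSF1 and IL-34 are the 2 ligands of the tyrosine kinase receptor CSF1R, on which microglia depend for survival and renewal; in the brain IL-34 comes mainly from neurons and CSF1 mainly from glia. CSF2RB is the signalling chain shared by the receptors for GM-CSF, IL-3 and IL-5, and CSF2RB2 is a mouse paralog that serves the receptor for IL-3. CSF3R binds G-CSF and is best known for driving the formation and release of neutrophils. An enhancer in an early intron of Csf1r, known as FIRE, is needed for microglia to form.

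RefSeq promoters (GRCm38.p6, the build of the peak lists) were at hand for Csf1, Csf2rb2 and Csf3r, and are shown because each overlaps a region described below, those of Csf1 and Csf3r open in all 23 libraries and that of Csf2rb2 in 8. The 250 bases before the RefSeq start are printed 5′ to 3′ along the gene's strand, with matches to the PU.1 core GAGGAA in capitals on either strand.

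Csf1 promoter, chr3:107760470-107760719, minus strand: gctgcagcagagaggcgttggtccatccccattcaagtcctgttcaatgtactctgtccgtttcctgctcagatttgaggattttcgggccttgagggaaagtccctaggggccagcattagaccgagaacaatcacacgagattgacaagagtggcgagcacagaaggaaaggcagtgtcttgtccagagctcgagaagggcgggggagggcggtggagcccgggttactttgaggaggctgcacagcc

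Csf2rb2 promoter, chr15:78305722-78305971, minus strand: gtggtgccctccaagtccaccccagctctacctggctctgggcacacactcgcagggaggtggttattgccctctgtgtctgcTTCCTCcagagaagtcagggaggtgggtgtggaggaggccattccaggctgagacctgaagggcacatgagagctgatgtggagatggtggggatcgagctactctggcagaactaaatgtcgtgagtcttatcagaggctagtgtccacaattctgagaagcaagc

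Csf3r promoter, chr4:126024409-126024658, plus strand: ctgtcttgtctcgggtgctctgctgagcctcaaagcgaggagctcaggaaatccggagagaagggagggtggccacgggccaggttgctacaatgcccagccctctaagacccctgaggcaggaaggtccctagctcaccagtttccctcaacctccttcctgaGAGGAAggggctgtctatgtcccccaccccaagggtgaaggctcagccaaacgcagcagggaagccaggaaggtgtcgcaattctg

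Their GC content was 56.4%, 56.4% and 60% in that order. PU.1, the ETS factor of the myeloid lineage, has its core GAGGAA in reverse 167 bases before the Csf2rb2 start and forward 86 bases before the Csf3r start, and 23.3% of the 32851 RefSeq promoters of this length hold it. The letters of AP-1 (TGANTCA, in 6.75% of promoters), C/EBP (TTGCNNAA, 9.56%), NF-kB (GGGANTTCC, 1.43%) and the TATA box (TATAAA, 12.4%), read on both strands, are not in these 3 windows, and GAGGAA is not in that of Csf1. None of these motif letters overlap one another here.

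Each list was shortened to its best 33949 peaks, the length of the shortest list, and a peak's rank percentile gives its place in its own library by −log10 p (100 is the best peak, 0 is no peak); the rank by fold enrichment is given beside it. Rank percentiles say where a peak stands among the peaks of its library, not how many reads it holds. In bulk cells, a change in the number of cells with an open region cannot be told apart from a change in openness per cell. The 6 libraries with identity numbers 01 to 03 in the labels were known from earlier results of these data to lie together, and the tests were also run without these 6. Pairs of libraries shared between 60.5% and 83.3% of the regions open in either, so no library was a copy of another. Whether 1 animal gave 1 library is not labelled, and the p-values reflect how these libraries vary. In CON_SAL, CON_LPS and MIA_SAL, some libraries of the same group share an identity number. The main tests took all libraries as independent. With the identity number as a random block, the consensus correlation within a number was 0.132. That limma fit called 5 regions of these genes as changed after LPS in CON and 6 in MIA, as many as the main fit. The presence tests were not run with this block.

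Between 20 and 28 peaks of the equal-length lists lay at the 6 genes in a library (median 24). Of the 32 regions, 11 (34.4%) held a peak in all 23 libraries, against 33.8% of all regions. These 11 were 4 at Csf1r, 3 at Csf3r and 2 each at Csf1 and Csf2rb, while Il34 and Csf2rb2 had none. By the median rank over the 23 libraries, the leading region of each gene stood at 91.4 for Csf1r, 84.4 for Csf3r, 82.9 for Csf2rb, 74.8 for Csf1, 54.0 for Csf2rb2 and 0 for Il34. The leading region of Csf3r lies at the start of the neighbouring gene Mrps15. That of Csf2rb2 held a peak of the equal-length lists almost only after LPS.

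**Figure D1:**
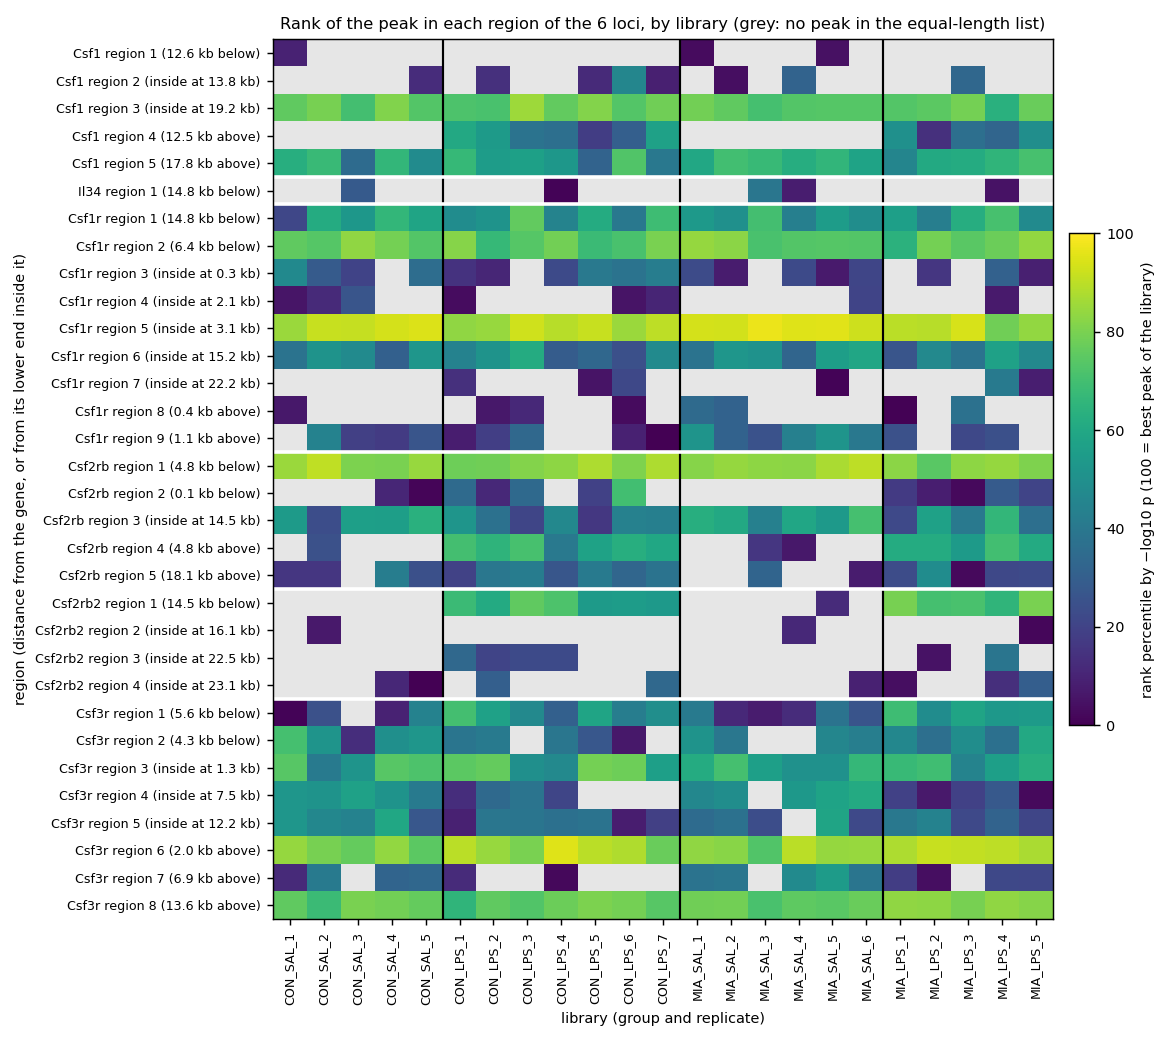
Rank percentile by −log10 p of the peak in each of the 32 regions (rows, grouped by gene) in each of the 23 libraries (columns, grouped as CON_SAL, CON_LPS, MIA_SAL and MIA_LPS); grey means no peak in the equal-length list. Csf1 region 4 and Csf2rb2 region 1 are filled in all 12 LPS libraries, in 0 and 1 of the 11 saline libraries, while 11 rows are filled throughout.

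After LPS, regions near Csf1, Csf2rb, Csf2rb2 and Csf3r gained peaks or rank, and fewer regions, inside Csf3r and just past Csf1r, lost rank. The exact test of presence, stratified by offspring group, called 4 of the 12 regions it could test higher after LPS and 0 lower, where 15.3% of the 17548 regions tested in all were called higher and 8.39% lower. Limma on rank percentiles called 4 of 32 higher and 1 lower in CON offspring, against 5.72% and 4.61% of 49125 regions. In MIA offspring it called 4 of 32 higher and 2 lower, against 6.32% and 4.01%. Over the 32 regions the median LPS difference was −1.06 percentile points in CON and 0.12 in MIA, against −0.61 and −0.26 over all regions. The share of higher among all calls differed between settings: from 64.5% to 81.7% for presence, from 55.4% to 63.7% for rank in CON and from 61.2% to 84.5% for rank in MIA when all deposited peaks were used, to 80.4%, 70.1% and 91.0% with peaks of −log10 q 5 or more, to 57.5%, 55.7% and 57.9% with lists of 16974 peaks, and to 78.8% for presence with the replicate block. The 3 regions called in all 3 tests, at Csf1, Csf2rb and Csf2rb2, all lie outside gene bodies. Since no peak counts as rank 0, the rank and presence tests read the same absences and are not independent.

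Csf1, on the minus strand of chromosome 3 (107741048 to 107760469), encodes the CSF1R ligand that glia supply. Its region 4, at 107772686 to 107773186, lies between genes 12.5 kb upstream of the RefSeq start. In the equal-length lists it held a peak in 12 of 12 LPS libraries and 0 of 11 saline libraries. The ranks were 60.3, 54.3, 38.1, 36.7, 18.1, 30.4 and 57.2 in CON_LPS and 50.1, 14.0, 36.6, 32.8 and 49.2 in MIA_LPS. Every LPS library thus stood above every saline library, and the lowest values were CON_LPS replicate 5 and MIA_LPS replicate 2. The exact stratified test gave a BH-adjusted p of 0.000175, and limma a rise of 42.1 points (SE 6.32, adjusted p = 9.3e-05) in CON and 36.5 points (SE 6.54, adjusted p = 0.000624) in MIA offspring. By fold the mean rank was 37.5 in CON_LPS and 30.4 in MIA_LPS. The peaks were weak ones: with all deposited peaks, 2 of the 6 MIA_SAL libraries also held one, and with lists of 16974 peaks the rank difference shrank to 6.24 points in CON (limma adjusted p = 0.248) and 0.04 in MIA (adjusted p = 1). Within the 6 libraries with identity numbers 01 to 03 the LPS difference was 44.0 points, and 38.4 points in the others.

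The Csf1 promoter, region 3 at 107760046 to 107760546, overlaps 77 of the bases printed above and was open in every library. Its ranks ran from 70.1 to 81.1 in CON_SAL (median 75.5), 71.3 to 85.2 in CON_LPS (76.1), 70.4 to 78.6 in MIA_SAL (73.7) and 63.3 to 79.1 in MIA_LPS (74.8). The groups overlapped, and the limma LPS difference was 0.92 points in CON (SE 2.94, adjusted p = 0.903) and −0.67 in MIA (SE 3.04, adjusted p = 0.943). Region 5, 17.8 kb upstream of the start, was also open in all 23 libraries. Its mean rank was 56.0 ± 14.1 (SD, n = 5) for CON_SAL and 53.9 ± 14.3 (SD, n = 7) for CON_LPS libraries, and 63.8 ± 4.60 (SD, n = 6) for MIA_SAL and 60.8 ± 9.46 (SD, n = 5) for MIA_LPS libraries. Region 4 thus lies between the promoter and a second region that both stayed open after saline and after LPS. Region 2, inside the gene, held a peak in 8 libraries, 5 of them after LPS.

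Region 1 of Csf1, 12.6 kb past the other end of the gene, went the opposite way in the deposited lists. With all deposited peaks it held one in 7 of 11 saline libraries (3 CON_SAL, 4 MIA_SAL) and 0 of 12 LPS libraries (adjusted p = 0.0236, exact stratified test). In the equal-length lists 3 saline libraries and 0 LPS libraries kept it, too few for the test.

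Il34, the gene of the neuronal CSF1R ligand (chromosome 8, 110741829 to 110805949), had no region in its body or at its ends. Its 1 region, at 110726759 to 110727259, lies 14.8 kb below it inside Mtss2. It held a peak in 1 of 5 CON_SAL, 1 of 7 CON_LPS, 2 of 6 MIA_SAL and 1 of 5 MIA_LPS libraries, at ranks of 28.3, 1.08, 39.3 and 7.82, and 4.78. The 3 saline peaks were all in libraries numbered 01 to 03, where the LPS difference was −25.2 points, against 0.65 points in the others. Neither the presence test, which it could not enter, nor limma called it (LPS difference −5.51 points, SE 5.73, adjusted p = 0.628 in CON and −6.90, SE 5.92, adjusted p = 0.549 in MIA).

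Csf1r, the receptor gene (chromosome 18, 61105572 to 61131139), held the highest ranks of the 6 genes by −log10 p. Region 5, inside the gene at 61108390 to 61108890 and 3.07 kb from its lower end, stood at 85.1, 91.4, 91.3, 93.5 and 94.9 in CON_SAL. In CON_LPS it ran from 83.2 to 92.7 (median 89.2), in MIA_SAL from 92.3 to 97.2 (median 94.3), and in MIA_LPS it was 89.8, 89.4, 93.8, 78.1 and 83.9. The groups overlapped, with 4 of 5 MIA_LPS libraries below the lowest of MIA_SAL. The limma LPS difference did not pass: −3.18 points (SE 2.58, adjusted p = 0.514) in CON and −7.49 (SE 2.66, adjusted p = 0.0815) in MIA, where it passed without MIA_LPS replicate 3 (−9.19 points, adjusted p = 0.0305). By fold the same peak ranked lower, with means between 63.9 and 72.3 in the 4 groups. On that measure it stood below Csf2rb region 1, with means between 91.2 and 95.6. Whether this region covers FIRE was not checked, since neither exons nor the position of that enhancer were used here.

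**Figure D2:**
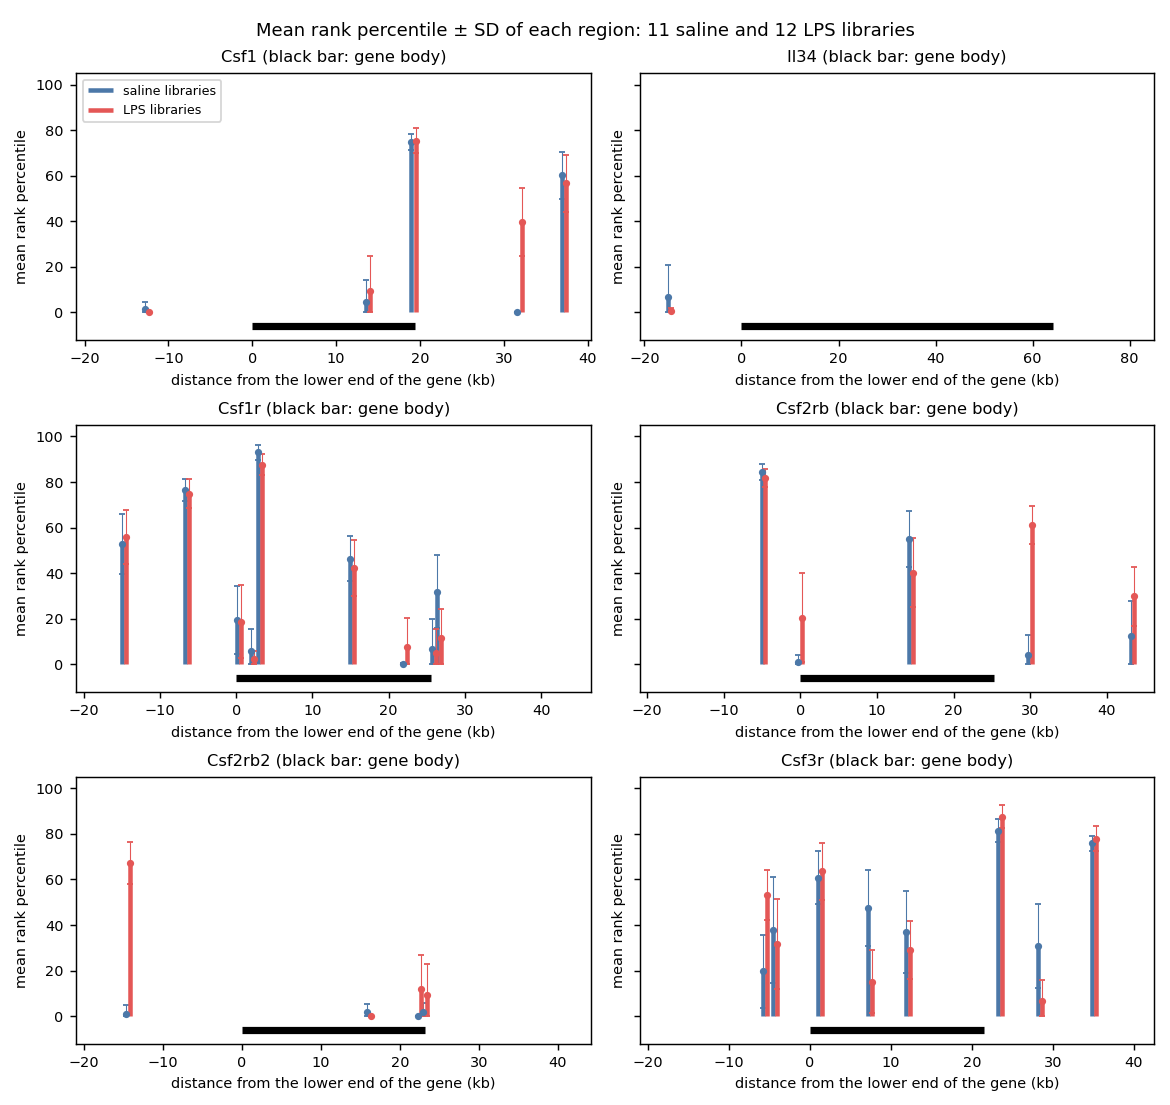
Mean rank percentile by −log10 p (± SD) of every region against its distance in kb from the lower end of its gene, for the 11 saline libraries (blue) and the 12 LPS libraries (red); the black bar is the gene body. Both treatments have tall bars at the Csf1 promoter (about 19 kb) and at Csf1r region 5 (about 3 kb), while Csf1 region 4 (about 32 kb) and Csf2rb2 region 1 (about −14 kb) stand up in red only.

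Csf1r had 3 more regions that were open in all 23 libraries. Region 2, 6.42 kb below the gene, had mean ranks from 74.4 to 77.0 in the 4 groups, region 1, 14.8 kb below and nearer to Pdgfrb, from 52.1 to 56.1, and region 6, 15.2 kb into the gene, from 41.7 to 48.1. Their 6 LPS differences lay between −4.92 and 3.75 points and none passed (lowest adjusted p = 0.723, limma). Region 3, at the lower end of the gene (61105636 to 61106136), held a peak in 18 libraries with mean ranks by −log10 p of 26.4, 24.1, 13.5 and 11.2 in CON_SAL, CON_LPS, MIA_SAL and MIA_LPS. By fold the same peaks sat at the foot of the lists, at 2.37, 4.26, 0.45 and 1.40. Region 4, 2.14 kb into the gene, showed the same gap, with 8.77 by −log10 p and 0.20 by fold in CON_SAL. The 2 authors' columns therefore place peaks inside Csf1r differently, and the reason was not tested.

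Past the upper end of Csf1r, region 9 (61131965 to 61132465) lies 1.08 kb beyond it and inside the next gene, Hmgxb3. In MIA_SAL its ranks ran from 25.3 to 51.7 (median 41.8), and in MIA_LPS they were 24.9, 0, 21.7, 24.6 and 0. The MIA groups did not overlap, and limma gave a fall of 26.4 points (SE 7.64, adjusted p = 0.0291). In CON the values were 0, 44.2, 18.9, 17.3 and 26.6 after saline and 0 to 33.7 (median 7.93) after LPS, a difference of −11.4 points (SE 7.38, adjusted p = 0.389). The test of the difference between the CON and MIA responses gave −15.0 points (SE 10.6, adjusted p = 0.988), so the responses were not shown to differ. The MIA call ended with all deposited peaks (adjusted p = 0.424), with ranks by fold (0.277) and when any 1 of 5 libraries was left out: MIA_SAL replicate 1, 4 or 5, or MIA_LPS replicate 2 or 5 (0.0524 to 0.0903). Region 8, between regions 7 and 9 and also inside Hmgxb3, held a peak in 8 libraries and region 7, inside Csf1r, in 6, of which 5 were LPS libraries (adjusted p = 0.351, exact stratified test).

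Csf2rb, the shared beta chain gene (chromosome 15, 78325800 to 78351001), and its paralog Csf2rb2 (78282507 to 78305721, minus strand) lie side by side. No source used here says how reads that fit both near-identical genes were placed, so peaks inside either gene are uncertain in origin. The 2 regions called most firmly lie outside both gene bodies, one on each flank of the pair.

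Csf2rb2 region 1, at 78267802 to 78268302, lies between genes, 14.5 kb below Csf2rb2 and 5470 bp from Ncf4, which encodes a subunit of the phagocyte NADPH oxidase. Its ranks were 68.0, 61.3, 75.5, 72.1, 54.4, 55.2 and 54.0 in CON_LPS and 79.3, 70.6, 71.2, 65.6 and 80.0 in MIA_LPS. In the equal-length lists no CON_SAL library held a peak, and MIA_SAL replicate 5 was the 1 saline library that did, at 12.2. All 12 LPS libraries stood above all 11 saline libraries in these lists. With all deposited peaks, 2 CON_SAL and 2 MIA_SAL libraries also held one, and the presence call held (adjusted p = 0.0236, exact stratified test). The exact stratified test gave an adjusted p of 0.000537, and limma rises of 62.9 points (SE 3.75, adjusted p = 1.93e-10) in CON and 71.3 points (SE 3.88, adjusted p = 5.22e-11) in MIA. By fold the mean ranks were 72.6 after LPS in CON and 82.6 in MIA. After LPS the MIA libraries averaged 10.4 points above the CON libraries (SE 3.75), which did not pass (adjusted p = 0.696), and the groups overlapped.

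Csf2rb region 4, at 78355512 to 78356012, lies between genes 4.76 kb above Csf2rb. Its ranks were 70.2, 65.2, 71.0, 40.3, 57.7, 62.5 and 59.7 in CON_LPS and 61.7, 61.4, 54.6, 69.8 and 61.2 in MIA_LPS. Of the saline libraries, 1 CON_SAL library stood at 25.0 and 2 MIA_SAL libraries at 15.7 and 6.37, and the other 8 had no peak in the equal-length lists. The lowest LPS value, CON_LPS replicate 4, was thus above the highest saline value. With all deposited peaks, 1 CON_SAL and 3 MIA_SAL libraries held a peak. The exact stratified test gave an adjusted p of 0.00471, and limma rises of 56.0 points (SE 5.08, adjusted p = 1.1e-07) in CON and 58.1 points (SE 5.25, adjusted p = 9.75e-08) in MIA. Rank calls of this region and of Csf2rb2 region 1 held under every alternative run, with smaller differences in lists of 16974 peaks: 24.7 points in CON and 23.5 in MIA here, and 25.9 and 46.6 at Csf2rb2 region 1. Within the libraries numbered 01 to 03 the LPS differences of the 2 regions were 54.4 and 66.9 points, and 58.0 and 65.9 points in the others.

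**Figure D3:**
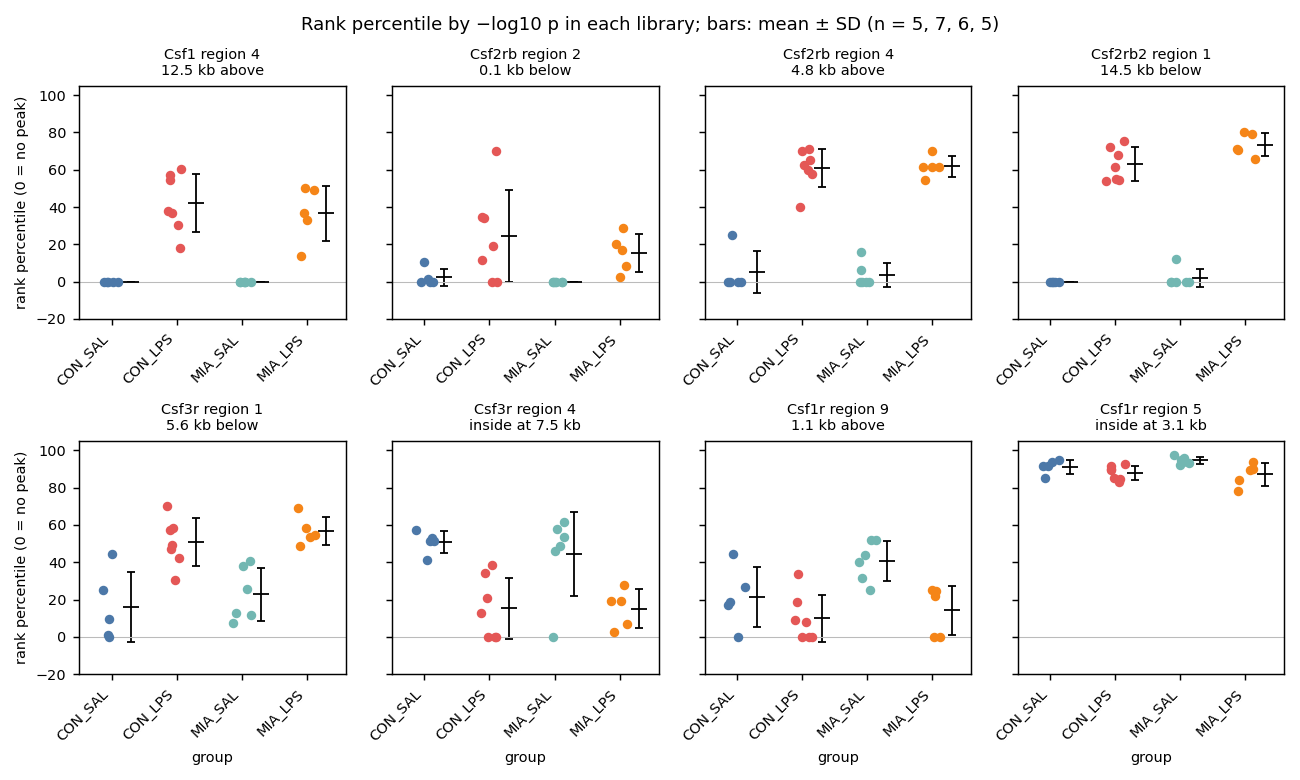
Rank percentile by −log10 p in each library of the 4 groups for 7 regions called after LPS and, last, for Csf1r region 5; a point is a library, 0 means no peak, and black bars are mean ± SD. Csf2rb2 region 1, Csf2rb region 4 and Csf1 region 4 separate LPS from saline libraries completely in both offspring groups.

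Region 2 of Csf2rb (78325486 to 78325986) lies at the lower end of the gene, 64 bp outside it. In the equal-length lists it held a peak in 2 of 5 CON_SAL, 5 of 7 CON_LPS, 0 of 6 MIA_SAL and 5 of 5 MIA_LPS libraries. The CON_LPS ranks were 34.5, 11.7, 34.2, 0, 19.4, 69.9 and 0, those of MIA_LPS 16.8, 8.46, 2.53, 28.7 and 20.4, and the 2 CON_SAL peaks stood at 10.6 and 1.27. Presence was higher after LPS (adjusted p = 0.0252, exact stratified test), while the rank differences of 21.9 points in CON (SE 8.35, adjusted p = 0.107) and 15.4 in MIA (SE 8.63, adjusted p = 0.311) did not pass. The presence call ended under 5 of the other settings, among them summits inside the region (0.0603) and lists ranked by fold (0.0668). With all deposited peaks, 2 CON_SAL, 7 CON_LPS, 4 MIA_SAL and 5 MIA_LPS libraries held one. The libraries came from 10560 to 25000 sorted cells. Under 20000 cells, the equal-length lists held the peak in 4 of 6 LPS and 0 of 7 saline libraries. At 20000 or more they held it in 6 of 6 and 2 of 4.

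Csf2rb region 1, at 78320725 to 78321225 and 4.83 kb below the gene, was the steadiest region of the pair and was open in all 23 libraries. Its mean ranks were 84.0 ± 4.23 (SD, n = 5), 82.4 ± 4.06 (n = 7), 84.9 ± 3.19 (n = 6) and 81.0 ± 3.85 (n = 5) in CON_SAL, CON_LPS, MIA_SAL and MIA_LPS. By fold it stood higher, at 95.6, 91.9, 95.2 and 91.2. Region 3, inside the gene, was open throughout as well, with LPS differences of −13.7 points in CON (SE 7.90, adjusted p = 0.323) and −14.0 in MIA (SE 8.17, adjusted p = 0.337). Region 5, 18.1 kb above and nearer to Tex33, held a peak in 12 of 12 LPS and 6 of 11 saline libraries (adjusted p = 0.0962, exact stratified test).

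The Csf2rb2 promoter, region 4 at 78305398 to 78305898, overlaps 177 of the bases printed above and held a peak in 8 of 23 libraries, 5 after LPS and 3 after saline. Its highest rank was 33.8. Region 3, 0.73 kb inside the start, held one in 4 of 7 CON_LPS and 2 of 5 MIA_LPS libraries and 0 of 11 saline libraries (adjusted p = 0.0576, exact stratified test), and of the settings run passed in the fit without CON_LPS replicate 7 alone (0.049). Region 2, further inside, held one in 3 libraries.

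Csf3r, the G-CSF receptor gene (chromosome 4, 126023441 to 126044975, plus strand), had regions that moved in opposite directions. Region 1, at 126017635 to 126018135, lies 6.77 kb upstream of the RefSeq start whose promoter is printed above. Its ranks were 1.13, 24.9, 0, 9.50 and 44.1 in CON_SAL and 30.6 to 70.3 (median 49.3) in CON_LPS. In MIA_SAL they ran from 7.51 to 40.6 (median 19.3), and in MIA_LPS they were 68.8, 48.6, 58.5, 53.3 and 54.4. The MIA groups did not overlap, and in CON 1 saline library lay within the LPS range. Limma gave rises of 34.8 points (SE 7.81, adjusted p = 0.00504) in CON and 34.0 points (SE 8.07, adjusted p = 0.00765) in MIA. A peak of the equal-length lists was there without LPS in 10 of 11 saline libraries, and the region could not enter the presence test in these lists. With all deposited peaks both calls ended (adjusted p = 0.0654 and 0.0684), and without the libraries numbered 01 to 03 the MIA call did (0.101).

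Region 4 of Csf3r, inside the gene at 126030679 to 126031179 and 6.27 kb downstream of that start, fell. It stood at 52.7, 51.3, 57.2, 51.2 and 41.0 in CON_SAL and at 12.9, 34.2, 38.7, 20.8, 0, 0 and 0 in CON_LPS. In MIA_SAL replicate 3 had no peak and the other 5 ran from 46.1 to 61.3, while MIA_LPS gave 19.3, 6.82, 19.2, 28.0 and 2.46. The CON groups did not overlap, and the MIA groups overlapped through MIA_SAL replicate 3 alone. Limma gave falls of 35.5 points (SE 8.92, adjusted p = 0.0117) in CON and 29.4 points (SE 9.23, adjusted p = 0.0445) in MIA. With all deposited peaks neither passed (0.0639 and 0.642), and the MIA call also ended with ranks by fold (0.127) and in 15 of the 23 fits that left out 1 library (0.0503 to 0.116), the exceptions being CON_SAL replicate 5, CON_LPS replicates 2, 3, 5, 6 and 7, MIA_SAL replicate 3 and MIA_LPS replicate 4. Within the libraries numbered 01 to 03 the LPS differences of regions 1 and 4 were 44.9 and −17.6 points, and 29.3 and −37.5 points in the others. With lists of 16974 peaks all 4 rank calls of the 2 regions ended, with differences of 10.2 and 14.0 points at region 1 (adjusted p = 0.439 in CON and 0.272 in MIA) and −4.99 and −7.51 at region 4 (0.466 and 0.253). In the same lists presence differed at both: higher after LPS by 61.4 percentage points at region 1 (adjusted p = 0.0236) and lower by 65 at region 4 (adjusted p = 0.00971, exact stratified tests).

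The Csf3r promoter, region 3 at 126024478 to 126024978, overlaps 181 of the printed bases and was open in all 23 libraries, at mean ranks of 62.6 ± 15.4 (SD, n = 5), 65.9 ± 14.2 (n = 7), 59.4 ± 8.38 (n = 6) and 60.1 ± 9.89 (n = 5) in CON_SAL, CON_LPS, MIA_SAL and MIA_LPS. LPS differences of 3.32 points (SE 7.01) and 0.78 (SE 7.25) did not pass (limma adjusted p = 0.841 and 0.98). The promoter of a noncoding gene model, Gm32908, overlaps the same region. Region 7, inside the neighbouring Mrps15, held a peak in 9 saline and 6 LPS libraries and stood 21.6 points lower after LPS in CON (SE 7.72, adjusted p = 0.0814) and 23.5 lower in MIA (SE 7.98, adjusted p = 0.0666). It passed in both without the libraries numbered 01 to 03 (0.00687 and 0.00988). Region 6 at the start of Mrps15 and region 8 at the start of Oscp1 were open in every library, with mean ranks from 79.7 to 89.5 and from 74.9 to 82.2. The LPS differences at region 6 were 6.54 points in CON (SE 3.03, adjusted p = 0.198) and 6.75 in MIA (SE 3.14, adjusted p = 0.203), and at region 8 −0.78 (SE 2.52, adjusted p = 0.903) and 6.29 (SE 2.60, adjusted p = 0.143), by limma. Ranked by fold, both passed in MIA (14.4 points, adjusted p = 0.0386, and 10.3 points, 0.0294), and region 6 passed in CON without the libraries numbered 01 to 03 (0.0327).

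**Figure D4:**
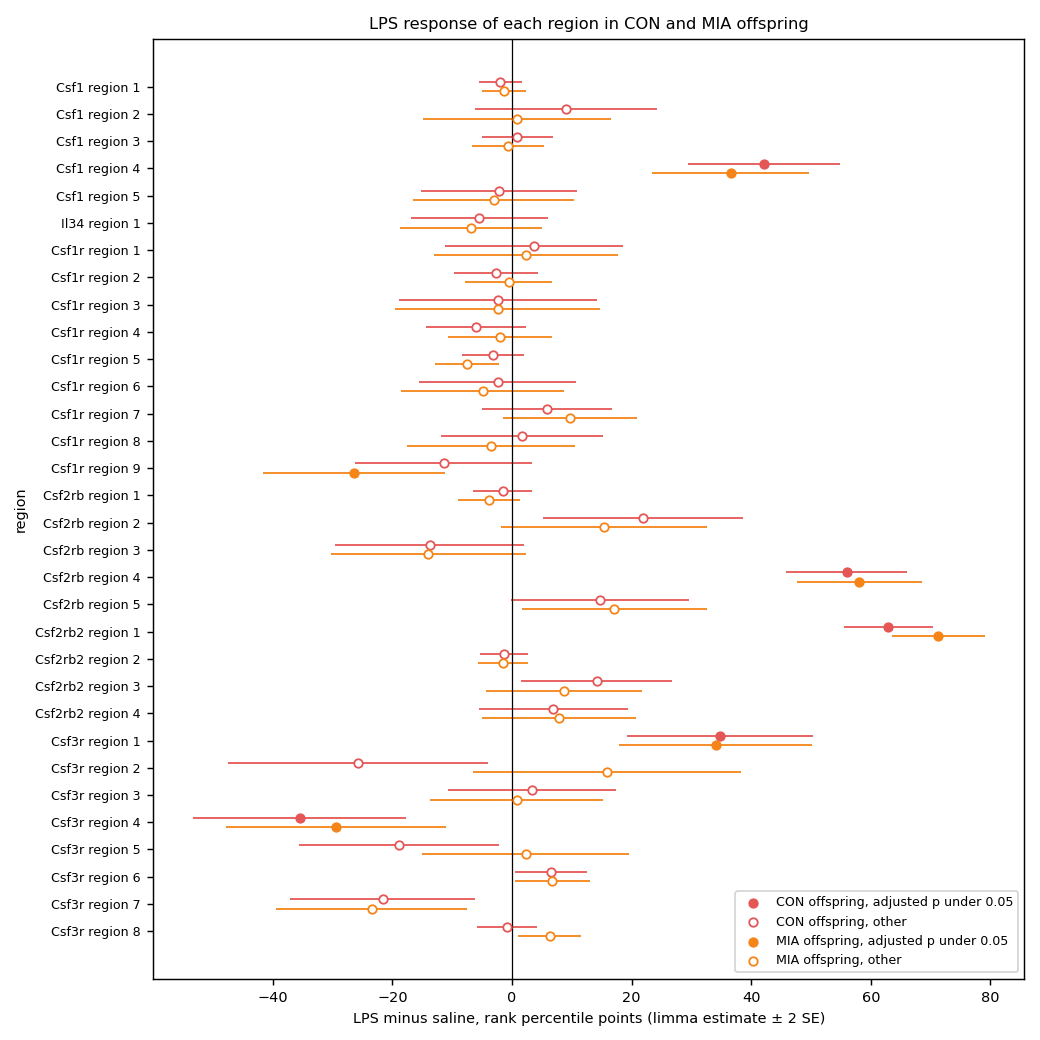
LPS minus saline difference in rank percentile points (limma estimate ± 2 SE) for each of the 32 regions in CON (red) and MIA (orange) offspring; filled points have a BH-adjusted p under 0.05. Both offspring groups have filled points at Csf1 region 4, Csf2rb region 4, Csf2rb2 region 1 and Csf3r regions 1 and 4, and the filled point at Csf1r region 9 is in MIA alone.

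Prenatal history moved none of the 32 regions past a test. The exact test of presence in MIA against CON called 0 of the 8 regions it could test and 0% of 15266 in all; at an unadjusted p under 0.05 there were 0 of the 8 and 410 (2.69%) of all. After saline, limma called 0 of 32 and 0% of 49125, with 1 of 32 and 2528 of all at an unadjusted p under 0.05. After LPS it called 0 of 32 against 0.0448% of all, which were 22 regions, with 3 of 32 and 2765 of all unadjusted. The lowest adjusted p of the 32 was 0.887 after saline, at Csf1r region 9 (19.3 points higher in MIA, SE 7.64), and 0.654 after LPS, at Csf3r region 8 (7.23 points higher in MIA, SE 2.52).

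The LPS responses of MIA and CON offspring differed by between −15.0 and 41.7 points at the 32 regions, with a median SE of 9.23, and limma called 0 of them (lowest adjusted p = 0.988, 1 of 32 unadjusted). Genome-wide 0.00204% were called, a single region inside Lpcat2 (chromosome 8, 92881819 to 92882319), named here after its value was seen. The largest difference among the 32 was at Csf3r region 2, 5.50 kb upstream of the start. It went from 47.6 ± 21.0 (SD, n = 5) to 21.8 ± 19.1 (n = 7) in CON and from 29.9 ± 23.5 (n = 6) to 45.8 ± 9.79 (n = 5) in MIA, a difference in response of 41.7 points (SE 15.6). All 4 groups overlapped. For the called regions the difference in response was −5.60 points at Csf1 region 4 (SE 9.10), 2.10 at Csf2rb region 4 (SE 7.30), 8.36 at Csf2rb2 region 1 (SE 5.40), −0.74 at Csf3r region 1 (SE 11.2) and 6.04 at Csf3r region 4 (SE 12.8). None of these values shows that the responses were equal.

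Microglia markers were open in every library: between 6 and 8 of 10 microglia markers had a peak summit within 1 kb of a gene end, and Tmem119, Cx3cr1, Siglech and Olfml3 were among those that did in all 23. Fcrls did in 21, Gpr34 and Slc2a5 in none, and Sall1 in 13. P2ry12, the gene of the sort marker, did in 13: 3 of 5 CON_SAL, 3 of 7 CON_LPS, 5 of 6 MIA_SAL and 2 of 5 MIA_LPS libraries. A minority of the neutrophil markers were open in LPS libraries alone, and the share of all genes with that pattern is not given here. Of 10 neutrophil markers, 0 were open in any saline library, 1 to 3 in CON_LPS and 0 to 3 in MIA_LPS libraries. S100a8 was open in 6 of 7 CON_LPS and 4 of 5 MIA_LPS libraries, Mmp8 in 5 and 4, Camp in 3 and 2 and Cxcr2 in 1 and 0, while S100a9, Ly6g, Mpo, Elane, Ltf and Retnlg were open in none. Of 8 markers of monocytes and border-associated macrophages, F13a1 was open in 6 CON_LPS, 4 MIA_LPS and 0 saline libraries, Ms4a7 in 3 MIA_LPS libraries and no other, and Mrc1 in 1 CON_SAL, 1 CON_LPS and 1 MIA_LPS library, while Ccr2, Ly6c2, Cd163, Lyve1 and Clec4n were open in none. The cells were sorted as P2RY12+ and CD45-low, and the purity of the sort was not tested. The part of neutrophils, monocytes or border-associated macrophages in the LPS differences at Csf3r, Csf2rb and Csf2rb2 was not tested.

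Other genes of the pathway were read with a list of 44: ligands and receptors of the same families, signalling proteins below CSF1R and the beta chain, and transcription factors that act on Csf1r. By the stratified test of presence, 20 of the 44 had a region within 20 kb that was higher after LPS, 2 had one that was lower, and 22 had neither, of which Ptprz1 and Kit had no region at all. In regions, 33 of the 132 tested were higher and 3 lower, against the 15.3% and 8.39% of all regions. By role, 2 of the 16 regions tested at ligand and receptor genes, 18 of 81 at signalling genes and 13 of 35 at Csf1r regulators were higher. Genes with more regions have more chances of a call (0 to 22 regions each), and the share of all genes with a called region was not computed. None of the 363 regions of the list was called between MIA and CON offspring.

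Among the ligands, the GM-CSF gene Csf2 had a region 10111 bp away that was open in 12 LPS and 3 saline libraries (adjusted p = 0.00471). The IL-5 gene Il5 had one in 12 and 5 (adjusted p = 0.027). The presence test called none of the 3 regions it could test at Csf3, 2 at Kitl and 1 at Flt3l, and Il3 had none that could enter it. Of the alpha chains that pair with CSF2RB, encoded by Csf2ra, Il3ra and Il5ra, Csf2ra had 1 region that could enter the presence test, which did not pass, and the others had none that could. Il3ra had 1 region higher after LPS by rank in CON. Regions in all 12 LPS and 0 of 11 saline libraries lay near the ETS factor gene Ets2 and inside the adaptor gene Grb2 (adjusted p = 0.000175 each). At the start of Ptpn6, the gene of the phosphatase SHP-1, and near Socs3, a feedback inhibitor of cytokine receptors including CSF3R, regions were open in 11 LPS and 0 saline libraries. Irf8, a transcription factor of the macrophage lineage, had one in 12 and 1 (adjusted p = 0.000537 for these 3). Lower regions lay inside Pik3r1, the gene of the PI3-kinase regulatory subunit (0 LPS and 9 saline libraries, adjusted p = 0.00199), and 7316 bp from the adaptor gene Dok1, inside Loxl3 (1 and 9, adjusted p = 0.00787).

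For each of the 6 genes, the region with the widest spread of its 4 group means was set against all regions at least 100 kb away, by the mean absolute difference in rank percentile over the 23 libraries. Csf1 region 4 was most like regions named by their nearest genes Gpcpd1 (4.40 points), Camk2d (5.04) and Becn1 (5.43). Csf2rb region 4 was most like regions at Ksr1 (5.10), Hhipl1 (5.18) and Bicd2 (5.25), and Csf2rb2 region 1 like regions at Slfn8 (4.77), Svil (4.81) and Fosl2 (4.81). Csf3r region 1 was nearest to regions at Jmjd1c (8.73), Scimp (9.01) and Zeb2 (10.1), and Csf1r region 9 to regions at Epor (8.01), Chchd6 (8.43) and Bbx (9.10). The nearest to Il34 region 1, at Srsf3, Ephb6 and Lama3, differed by 0.74 to 1.03 points, since most of their values are 0. The regions found for Csf1, Csf2rb and Csf2rb2 were open in all 7 CON_LPS libraries and in at most 3 saline libraries. This follows from how they were picked, by likeness of rank in the same libraries, and is not a separate result.

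Distance from the gene decided what was counted. The farthest regions kept were Csf2rb region 5, 18148 bp away, and Csf1 region 5, 17793 bp away. Just outside lay a region that overlaps the Mtss2 promoter, 20159 bp from Il34, with a peak in 6 of 23 libraries. Another, inside Oscp1 and 20461 bp from Csf3r, was open in all 23 at mean ranks from 88.6 to 90.4. A region 21052 bp from Csf1 was open in 10. With a reach of 5 kb in place of 20 kb, Csf1 region 4 and Csf2rb2 region 1 are not counted, and 2 of the 4 presence calls are left, both at Csf2rb.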

How the data were processed

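ATAC-seq peak lists of 23 libraries were used, with 33949 to 68312 peaks each (median 43871). The tools named, per the submitters' processing notes, are MACS2 and DiffBind after cutadapt, Bowtie2, Picard and SAMtools, with the builds mm10 and GRCm38. No source used here gives versions, settings or any shift of read ends for Tn5. The deposited lists hold, per peak, the authors' fold enrichment at the summit (a ratio, lowest 1.27), the −log10 p and the −log10 q (lowest deposited 1.30). These values are the authors' own and only ranked peaks within a library. Read totals are unknown, so no interval for counting error can be given.

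From each list the 33949 peaks with the largest −log10 p were taken. Windows of 501 bp on the summits, overlapping ones removed with the best rank first, gave 74289 windows, of which 49126 with a peak in at least 3 libraries were kept as regions. A peak counted for a region when 50% or more of the region, or of the peak, lay in the overlap. The presence tests were exact and two-sided, conditional on the margins within each stratum of the other factor, on regions whose attainable p was 0.01 or less. Rank percentiles were fitted with limma 3.58.1 in R 4.3.3, all 4 groups sharing the spread. Libraries without a peak entered as 0, so a group without peaks has no spread and lowers the shared one. At such regions the SE and p are not measures of the spread among libraries that hold a peak. Adjustment was by Benjamini-Hochberg (BH) over all regions tested, with a threshold of 0.05. Both tests were tested on simulated data. In alternatives the regions stayed fixed and presence and ranks were recomputed. Genes came from a GRCm38.p6 RefSeq table without strand or exons, so regions inside genes are not called exonic or intronic, and strand and promoters were known for 3 of the 6 genes. "Lower end" and "below" mean the smaller coordinate. A region named by a gene is not shown to act on it.

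Named were the regions called in any of the 7 tests, the region with the highest median rank and those within 1 kb of an end of each gene, and up to 6 pathway genes in each direction by adjusted p in the LPS presence test. Some named items are not reported here. Regions described beyond this rule, Csf2 and Il5 were chosen after their values were seen. The genes, the lists of pathway genes and markers and the tests were chosen with earlier results of these data known. A marker counted as open where a summit lay within 1 kb of either gene end. Markers of the remaining lists were open at 0 to 3 of 8 neuron, 0 to 2 of 6 astrocyte, 1 to 2 of 6 oligodendrocyte lineage, 1 to 2 of 5 endothelial and 1 to 2 of 6 T and B cell genes in a library.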

Additional observations from a re-analysis of the deposited data

Results flagged for a closer look

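In 58 combinations of a named region and a group of 5 to 7 libraries, the highest and lowest rank percentiles were checked for standing far from the others, and 13 did. Chance flags about 1 in 20 such checks when values are normally spread, which ranks with many zeros are not. A single peak among libraries without one is always flagged. At the 2 firmest LPS regions, CON_SAL replicate 2 had a rank of 25.0 at Csf2rb region 4 where the other 4 had no peak, and MIA_SAL replicate 5 had 12.2 at Csf2rb2 region 1 where the other 5 had none. At Csf3r region 4, MIA_SAL replicate 3 had no peak (0) while the other 5 libraries ran from 46.1 to 61.3. Csf2rb region 2 stood at 10.6 in CON_SAL replicate 4, with the others at 1.27 or less, and Csf2rb2 region 3 at 38.9 in MIA_LPS replicate 4, with the others at 4.82 or less. The Csf2rb2 promoter region reached 11.0 in CON_SAL replicate 4 and 9.29 in MIA_SAL replicate 6. Il34 region 1 was flagged in all 4 groups, at 28.3 in CON_SAL replicate 3, 1.08 in CON_LPS replicate 4, 39.3 in MIA_SAL replicate 3 and 4.78 in MIA_LPS replicate 4. Csf1r region 8 was flagged at 6.52 in CON_SAL replicate 1 and 37.2 in MIA_LPS replicate 3.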

How the results depend on the processing

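Of the 15 calls at named regions, 7 were kept under every alternative that could test them, and none reversed. Csf1 region 4 and Csf2rb region 2 could not enter the presence test with lists of 16974 peaks, nor Csf2rb region 2 with all deposited peaks, nor Csf2rb region 4 with the replicate block. The number of the 32 regions called for presence after LPS was 4, and 2 with a reach of 5 kb (4 to 5 when 1 library was left out). For rank in CON it was 5, and 3 with all deposited peaks, 2 with lists of 16974 peaks, 3 with peaks of −log10 q 5 or more, 8 without the libraries numbered 01 to 03 and 2 with a reach of 5 kb (5 to 7 when 1 library was left out). For rank in MIA it was 6, and 2 with lists of 16974 peaks, 3 with peaks of −log10 q 5 or more and 3 with a reach of 5 kb (4 to 7 when 1 library was left out). The cause of these changes was not tested. The 4 contrasts of prenatal history called 0 of the 32 under every alternative. Genome-wide, presence calls after LPS went from 4154 to 2756 with all deposited peaks, 2257 with 16974 peaks, 2481 with the stricter q, 2545 with every region entering and 1646 with the replicate block. Rank calls in CON went from 5076 to 3381, 1762 and 1633 with all deposited peaks, 16974 peaks and the stricter q, and in MIA from 5077 to 1744 with 16974 peaks. Calls of MIA against CON after LPS went from 22 to 104 with all deposited peaks, 329 with the stricter q, 4 with 16974 peaks, 5 with the replicate block, 14 with summits inside the region and 10 to 67 when 1 library was left out, moving by more than 1.5 times without CON_LPS replicate 3 or 4, MIA_SAL replicate 4 or 5, or MIA_LPS replicate 1, 2, 3 or 4. Calls of a different LPS response in MIA and CON went from 1 to 5 with all deposited peaks and 0 to 7 when 1 library was left out. After saline, calls of MIA against CON went from 0 to 14 without the libraries numbered 01 to 03, and 0 to 16 when 1 library was left out. The deviations of libraries with the same replicate number in different groups correlated at −0.18 to 0.185 (median 0.021, 31 pairs, 8 of them over 0.1). For differently numbered pairs the range was −0.229 to 0.234 (median −0.005, 166 pairs, 14 of them over 0.1). These values do not settle whether the numbers pair libraries. With the replicate block, 3 regions were called for presence after LPS, 4 for rank in CON and 5 for rank in MIA, and 0 in the prenatal contrasts. Under it the rank calls of Csf3r region 4 in CON (0.0617) and MIA (0.0903) and of Csf1r region 9 in MIA (0.0772) ended, and Csf3r region 7 in MIA passed (0.0345). Depth is unknown, and a region without a peak may be open below the caller's threshold.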
